A study of Mus musculus with 8 samples.

Results

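The genes described here are 8 transcription factors known to mark subclasses of retinal ganglion cells (RGCs), taken by their symbols from the 33696 genes counted in the series. They are the forkhead factors Foxp1 and Foxp2, the chromatin organiser Satb1, the T-box factor Tbr1, the basic helix-loop-helix factor Neurod2, the zinc-finger factors Zic1 and Bnc2, and the Iroquois homeodomain factor Irx3. Their RNA was followed in RGC nuclei and in the other retinal nuclei caught in the same sorts, and between control and conditional knockout (cKO) mice. RGC nuclei were defined as barcodes with at least 2000 unique molecular identifiers (UMIs, the count of captured RNA molecules) and at least 2 UMIs in sum of Rbpms, an RNA-binding protein specific to RGCs, and Slc17a6, the vesicular glutamate transporter of RGCs. By this rule 23906 of 33729 barcodes with at least 2000 UMIs were RGC nuclei, and all 8 genes had UMIs in RGC nuclei of every library.

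The samples were single-nucleus RNA-seq libraries of adult retina from female C57BL/6J mice at postnatal day 120, sorted as NeuN+/RBPMS+. The control group was Piezo2f/f, carrying floxed Piezo2 alleles without Cre (4 libraries, replicates 1 to 4), and the cKO group was Olig2-cre;Piezo2f/f (4 libraries, replicates 10 to 13), so both groups carried the floxed alleles. Each library pooled 6 retinae. In the cKO, Cre comes from the Olig2 locus, which drives it in the oligodendrocyte lineage and in other cells with a history of Olig2 expression, and the knock-in leaves 1 intact Olig2 copy. Age is in the title of every sample, whereas sex is in the series text for both groups and in the sample labels of the controls only.

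RGCs are the neurons whose axons form the optic nerve, and they fall into many molecular types that differ in dendrite shape, visual feature and brain target. Transcription factors kept on into adulthood are among the genes by which these types are told apart. Foxp2 marks the F-RGC types, which often carry Foxp1 as well, Satb1 is known from direction-selective RGCs, and Tbr1 from J-RGCs and related types, while the Brn3 factors (Pou4f1, Pou4f2, Pou4f3) are broad RGC markers.

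The libraries held 35697629 to 60088630 UMIs each, with 1696 to 3797 RGC nuclei per library and a median of 4886 to 11062.5 UMIs per RGC nucleus. At the edge of the gate, 1000 RGC nuclei had exactly 2 UMIs of the gate genes and a further 1811 barcodes of at least 2000 UMIs fell short with 1 UMI. Between 3.66% and 6.88% of RGC nuclei per library also reached the gate of another retinal class. The genotype and member-positive fits, the shares and the joint detection in RGC nuclei were recomputed without them. The comparisons of RGC nuclei with other classes were not. Pairs of libraries shared 0 to 5 RGC barcode sequences, 66 over all 28 pairs. No library stood apart in its number of shared barcodes, and depth differed within both genotypes. Control replicate 4 stood apart in free RNA, with 24319 barcodes of 10 to 100 UMIs (taken here as free RNA) against 2193 to 4352 in the other libraries, and had the fewest barcodes of at least 1000 UMIs (2729 against 4356 to 5902).

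The members lie on 7 chromosomes of the GRCm39 mouse genome and differ widely in span. Foxp1 (chr6:98902299-99499685, minus strand) spans 597.387 kb and Foxp2 (chr6:14901287-15441976, plus strand) 540.69 kb. Bnc2 (chr4:84193332-84593512, minus strand) spans 400.181 kb and Satb1 (chr17:52043114-52140622, minus strand) 97.509 kb. The other members are short. Tbr1 (chr2:61633274-61644458, plus strand) spans 11.185 kb, Zic1 (chr9:91240111-91247863, minus strand) 7.753 kb, Neurod2 (chr11:98216241-98220480, minus strand) 4.24 kb and Irx3 (chr8:92525153-92528695, minus strand) 3.543 kb. Nuclear RNA is rich in unspliced transcripts, and counting of intronic reads is the default of the counting program version named in the labels, though the labels do not say whether it was used. Zic1 overlaps Zic4 on the opposite strand, Irx3 overlaps Irx3os on the opposite strand, and Foxp1 overlaps the counted predicted genes Gm52870 and Gm20705.

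In RGC nuclei the members formed a high group of 4 and a low group of 4 in counts per 1000000 UMIs (CPM, summed over the RGC nuclei of a library). Foxp1 was highest at 248 ± 9.88 CPM, followed by Foxp2 at 161 ± 9.89 CPM, Bnc2 at 139 ± 8.88 CPM and Satb1 at 112 ± 5.6 CPM (mean ± SD, n = 8 libraries). Zic1 had 5.40 ± 0.761 CPM, Irx3 4.64 ± 0.424 CPM, Tbr1 4.4 ± 0.617 CPM and Neurod2 3.61 ± 0.469 CPM. No library of a high member reached down to any library of a low member. The CPM of different genes were not compared as transcript numbers, since the effect of gene span on them was not tested. Per kilobase of gene span the order was another one. Irx3 came first at 1.31 ± 0.120 CPM per kb, then Satb1 at 1.15 ± 0.0575, Neurod2 at 0.851 ± 0.111, Zic1 at 0.697 ± 0.0982, Foxp1 at 0.415 ± 0.0165, Tbr1 at 0.393 ± 0.0552, Bnc2 at 0.347 ± 0.0222 and Foxp2 at 0.297 ± 0.0183 CPM per kb. Of the neighbours in this order, Zic1 and Foxp1 had ranges over the libraries that did not overlap, and all other neighbours overlapped, so their order is not fixed. As these are sums over many nuclei, fewer nuclei of a type and less RNA per nucleus cannot be told apart in them.

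**Figure D1:**
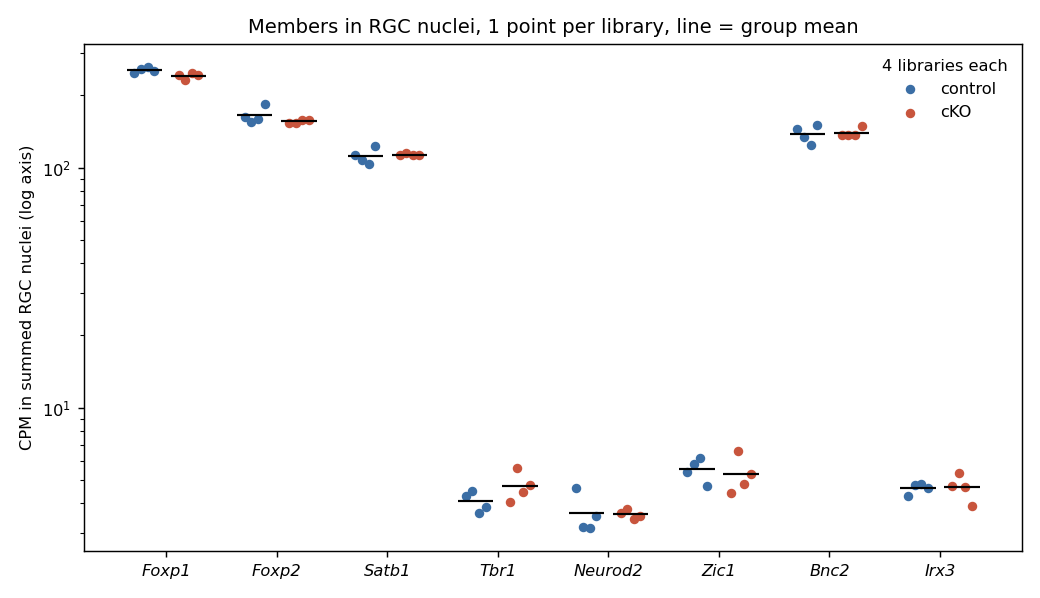
Level of each of the 8 transcription factors in RGC nuclei, in CPM on a log10 axis, with 1 point per library for the 4 control and 4 cKO libraries and a line at each group's mean. Foxp1, Foxp2, Bnc2 and Satb1 lie above 100 CPM in all 8 libraries, Zic1, Irx3, Tbr1 and Neurod2 lie below 7 CPM, and the genotypes overlap for every member but Foxp1.

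The members also differed in how their UMIs were spread over nuclei. Foxp2 had at least 1 UMI in 21.9 ± 1.13% of RGC nuclei, although its total would have reached 68.5% of them had it been spread evenly by depth (a Poisson expectation from each nucleus's UMI count). The Foxp2 UMIs were concentrated in few nuclei, with 93.1% of them in nuclei that held at least 3. Bnc2 behaved likewise, with a UMI in 22.5 ± 1.46% of nuclei against 63.9% for an even spread and 88.3% of its UMIs in nuclei with at least 3. Foxp1 was spread widely. It had a UMI in 71.9 ± 7.86% of nuclei, against 81.2% for an even spread, and 70.4% of its UMIs lay in nuclei with at least 3. Satb1 fell between these, with a UMI in 43.6 ± 6.07% of nuclei against 57.1%.

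The low members could not be resolved in this way, because most of their UMIs were single counts in a nucleus. Tbr1 had a UMI in 3.19% of RGC nuclei against 3.64% for an even spread, Neurod2 in 2.67% against 2.99% and Irx3 in 3.64% against 3.86%. Zic1 was the exception, with a UMI in 2.73% of nuclei against 4.45%, and with 34.1% of its UMIs in nuclei that held at least 3. The same share was 8.56% for Tbr1, 5.92% for Neurod2 and 0.946% for Irx3. Among the 4 low members, Zic1 had the largest share of its UMIs in such nuclei.

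**Figure D2:**
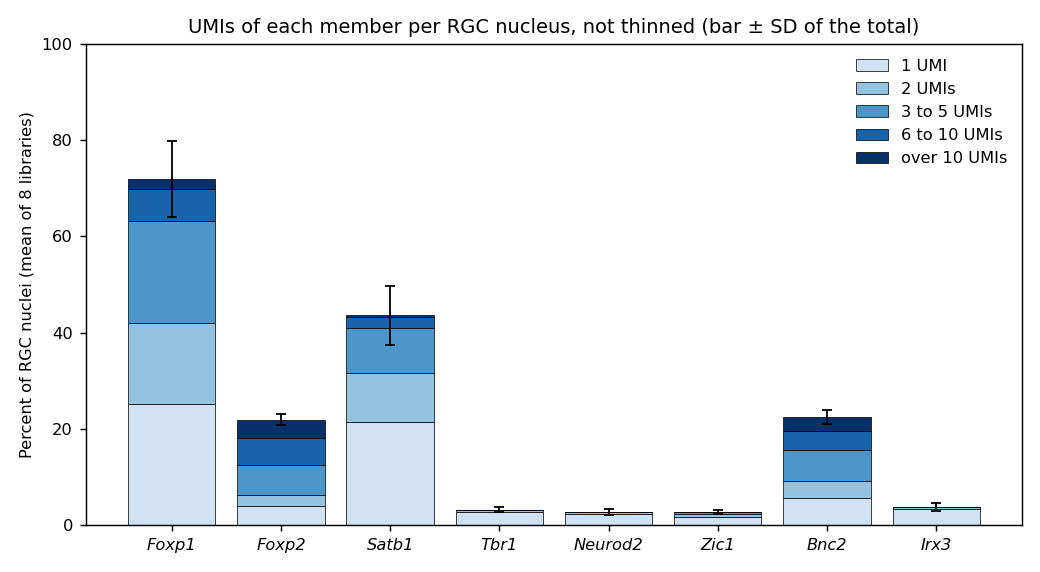
Percent of RGC nuclei by their number of UMIs of each member, as stacked bars (mean over 8 libraries, error bar the SD of the total). The percent with at least 1 UMI under an even spread by depth is not drawn. Foxp2 and Bnc2 fall far short of it (21.9% against 68.5% and 22.5% against 63.9%), while Foxp1 comes near it (71.9% against 81.2%).

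Shares of nuclei with a UMI depend on depth, so each RGC nucleus was thinned at random to 2000 UMIs before nuclei were called positive or negative for a member. At that depth Foxp1 was detected in 35.4% of RGC nuclei, Satb1 in 17.4%, Foxp2 in 16.5% and Bnc2 in 14.2%, against 1.03% for Irx3, 1.01% for Zic1, 0.862% for Tbr1 and 0.754% for Neurod2. This gave 8437 Foxp1-positive, 4136 Satb1-positive, 3918 Foxp2-positive and 3386 Bnc2-positive nuclei over the 8 libraries, but only 246 Zic1-positive, 246 Irx3-positive, 213 Tbr1-positive and 180 Neurod2-positive ones. A negative nucleus at this depth is one without a captured molecule, not one shown to lack the transcript. Likewise, a positive nucleus can hold a molecule of free RNA. In the free RNA of control replicate 4, Irx3 had 21.8 CPM, Neurod2 16.9, Zic1 13.1 and Tbr1 6.78. Their mean levels in RGC nuclei over the libraries were lower, at 4.64, 3.61, 5.40 and 4.4 CPM. Foxp1, Foxp2, Satb1 and Bnc2 were lower in this free RNA than in RGC nuclei, at 65.8, 33.9, 72.1 and 13.6 CPM. The other libraries held 0 to 7 free UMIs of each low member, too few to compare. The share of positive nuclei that rest on free RNA was not tested. Foxp2-positive nuclei had fewer UMIs before thinning than Foxp2-negative ones in 8 of 8 libraries (mean of the library medians 6649 against 7841), as had Foxp1-positive nuclei in 8 of 8, whereas Satb1-positive and Bnc2-positive nuclei had more in 8 of 8.

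Most RGC nuclei carried no member or 1 member at 2000 UMIs. None was detected in 38.3 ± 1.02% of nuclei, 1 in 39.7 ± 0.412%, 2 in 18.9 ± 1.03% and 3 or more in 3.15 ± 0.272% (n = 8 libraries). If the members had been detected independently of each other at their own rates, 36.9% would have held none, 42.7% 1 and 17.1% 2. The observed shares of 0 and of 2 members lay above, and that of 1 member below, the independent value in 8 of 8 libraries. The nuclei with 3 or more lay above it in 3 libraries only. In nuclei that were not thinned, the share with 1 member was again below the independent value in 8 of 8 libraries, but that with 2 members was 37.7% against 37.5% and lay above it in 5 of 8 only.

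The share of positive nuclei in which no other member was detected differed among members. It depends on how often the other members were detected, and its value under independent detection was not computed for each member. These shares therefore do not rank the members by how exclusive they are. Foxp1-positive nuclei had no other member in 55.7 ± 1.18%. Tbr1-positive nuclei had none of the other 7 members in 52.5 ± 7.52%, Irx3-positive nuclei in 52.9 ± 8.81% and Neurod2-positive nuclei in 49.4 ± 12.2%. Allowing Foxp1, the widespread member, beside them, these shares were 78.8%, 74.9% and 69.8%. Foxp2-positive nuclei had no other member in 30.3 ± 2.38%, and no other member but Foxp1 in 69.6 ± 2.91%. Satb1-positive nuclei were alone in 44.8 ± 1.99% and Bnc2-positive nuclei in 39.5 ± 3.51%, and with Foxp1 allowed in 65.8 ± 1.88% and 54.8 ± 1.90%. Zic1-positive nuclei were alone least often, in 21.5 ± 4.49%, and in 31.7 ± 8.31% when Foxp1 was allowed.

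Pairs of members were compared with the number of nuclei expected to hold both if the detections were independent within each library. Of 28 pairs, 5 were detected together more often than expected in 8 of 8 libraries, 8 less often in 8 of 8, and 15 on different sides in different libraries. The expected number was at least 20 nuclei for 22 of the pairs. These ratios describe detection across nuclei that share a library, and no p-value is attached to them.

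Foxp1 with Foxp2, the forkhead pair, were found together in 1907 nuclei against 1383 expected, a ratio of 1.38 (1.29 to 1.46 over the libraries). Among Foxp2-positive nuclei 48.6 ± 2.14% had Foxp1, against 35.4% of all RGC nuclei. The other pairs that occurred together more often formed a chain around Bnc2. Satb1 with Bnc2 had a ratio of 1.42 (1.24 to 1.54, 833 nuclei), Foxp2 with Bnc2 of 1.30 (1.07 to 1.44, 724 nuclei) and Zic1 with Bnc2 of 2.82 (2.25 to 3.45, 98 nuclei). Zic1 with Satb1 had a ratio of 2.45 (1.69 to 3.20, 104 nuclei). Zic1-positive nuclei thus carried Satb1 in 43.0 ± 10.2% and Bnc2 in 41.0 ± 7.67%, compared with 17.4% and 14.2% of all RGC nuclei. Of Zic1-positive nuclei 9.76% (0 to 27.5% over the libraries) also reached the gate of another class, against 4.83% of Zic1-negative ones, and without such nuclei the ratios were 2.58 with Satb1 and 3.08 with Bnc2.

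Of the 8 pairs found together less often, 5 joined Foxp2 or Bnc2 with Tbr1, Neurod2 or Irx3, and 3 joined abundant members. Foxp2 with Tbr1 occurred in 7 nuclei against 34.8 expected (ratio 0.20), Foxp2 with Irx3 in 12 against 40.3 (0.30) and Foxp2 with Neurod2 in 10 against 29.5 (0.34). Bnc2 with Neurod2 occurred in 5 nuclei against 25.5 (0.20) and Bnc2 with Tbr1 in 7 against 30.2 (0.23). Tbr1, Neurod2 and Irx3 were therefore rarely in a nucleus with Foxp2, and Tbr1 and Neurod2 rarely in one with Bnc2. Between the abundant members the departures were smaller, with ratios of 0.73 for Foxp1 with Bnc2, 0.78 for Foxp2 with Satb1 and 0.91 for Foxp1 with Satb1. The last of these turned to 1.02 in nuclei that were not thinned.

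In nuclei that were not thinned, with the expected number taken within deciles of depth, 12 of these 13 pairs lay on the same side of 1 in 8 of 8 libraries as before. The exception was Foxp1 with Satb1 (0.98, above 1 in 2 libraries). Several ratios came closer to 1. Foxp1 with Foxp2 was then 1.07 (1.01 to 1.19 over the libraries), Zic1 with Satb1 1.72, Satb1 with Bnc2 1.16, Foxp2 with Irx3 0.50, Foxp2 with Tbr1 0.41 and Foxp2 with Neurod2 0.47. With at least 3 UMIs of both members, also within depth deciles, Foxp1 with Foxp2 had a ratio of 1.66, Zic1 with Satb1 of 3.46 and Satb1 with Bnc2 of 1.77. On the other side, Foxp1 with Bnc2 had 0.60, Foxp2 with Satb1 0.63, and Foxp2 with Neurod2, Zic1 and Irx3 each 0. At this setting only 7 of 28 pairs were expected in at least 20 nuclei, and Zic1 with Satb1 was not among them. In thinned nuclei, each pair among the 4 rare members was expected in fewer than 3 nuclei and was seen in 1 or 2, so this depth does not show whether they occur together.

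**Figure D3:**
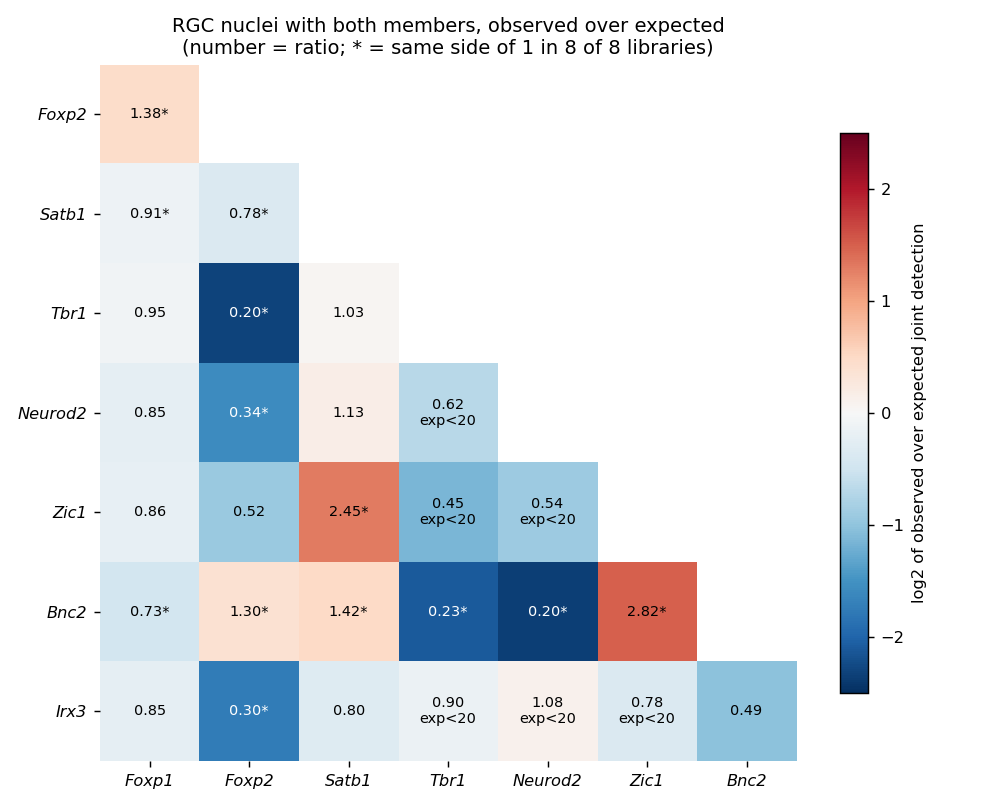
Observed over expected number of RGC nuclei with both members of each of the 28 pairs after thinning to 2000 UMIs (colour on a log2 scale), with marks for pairs on the same side of 1 in all 8 libraries. Zic1 with Bnc2 (2.82) and Zic1 with Satb1 (2.45) are highest among the marked pairs, and the pairs of Foxp2 or Bnc2 with Tbr1 and Neurod2 and of Foxp2 with Irx3 (0.20 to 0.34) are lowest among them.

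The same nuclei counted without thinning gave the patterns with at least 3 UMIs of a member. None of the 8 reached 3 UMIs in 49.0 ± 10.3% of RGC nuclei, Foxp1 alone did in 17.3%, Foxp1 with Foxp2 in 6.31%, Foxp2 alone in 5.67%, Bnc2 alone in 5.46% and Satb1 alone in 4.52%. The pairs Foxp1 with Satb1 (2.73%), Satb1 with Bnc2 (2.43%) and Foxp2 with Bnc2 (2.13%) followed. Foxp2 with Satb1, by contrast, was found as the whole pattern in 0.385% of nuclei. The most frequent patterns were therefore Foxp1 with or without Foxp2, Foxp2 by itself, and Bnc2 or Satb1 by itself.

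To see which genes go with each factor, UMIs were summed per library over the positive and over the negative RGC nuclei and compared with edgeR's quasi-likelihood test with the library as a block. Genes were called at a Benjamini-Hochberg adjusted p under 0.05 with a log2 difference above 0.5 in size. Foxp2-positive nuclei differed most, with 751 genes higher and 1060 lower (11.2% of 16204 tested), followed by Bnc2-positive nuclei with 585 higher and 1071 lower (10.2% of 16276). Zic1-positive nuclei had 331 higher and 764 lower (7.04% of 15554), Neurod2-positive 152 and 381 (3.43% of 15531), Tbr1-positive 112 and 343 (2.92% of 15566), Satb1-positive 108 and 310 (2.55% of 16389), Irx3-positive 94 and 148 (1.55% of 15631) and Foxp1-positive 104 and 40 (0.856% of 16826). These counts are not comparable between members as measures of distinctness, since the Irx3-positive sums hold 246 nuclei and the Foxp1-positive sums 8437. In what follows, CPM are means ± SD over the 8 libraries in positive against negative nuclei, and the value in brackets after them is the log2 difference ± SE.

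Foxp2-positive nuclei were marked by Pde1a, a calcium- and calmodulin-dependent phosphodiesterase, which had 157 ± 14.5 CPM against 9.16 ± 1.82 CPM in Foxp2-negative nuclei (log2 difference 4.13 ± 0.06 SE, edgeR adjusted p = 1.07e-30). In the 8 libraries Pde1a lay between 143 and 186 CPM (median 153) in positive and between 6.55 and 11.4 CPM (median 9.39) in negative nuclei, and the ranges were far apart. Dkk2, a secreted modulator of Wnt signalling, had 26.8 ± 8.45 against 1.52 ± 0.640 CPM (4.10 ± 0.11), and Mdfic, a regulator of transcription, 10.5 ± 1.02 against 0.839 ± 0.209 CPM (3.65 ± 0.16). The 2 named genes that fell were Tbx20, a T-box factor, with 2.22 ± 1.81 against 23.9 ± 4.38 CPM (-3.57 ± 0.18), and Ccdc192, a coiled-coil gene, with 5.61 ± 3.68 against 51.6 ± 6.09 CPM (-3.17 ± 0.13). Each of these 5 genes moved in its direction in 8 of 8 libraries. Among other transcription factors of RGCs 11 rose and 12 fell of 48 tested, and Lmo4, a LIM-only cofactor, rose from 30.1 ± 3.34 to 93.9 ± 13.5 CPM (1.65 ± 0.05). The receptor tyrosine kinase Kit, a marker of RGC subtypes, rose from 3.78 ± 0.654 to 27.8 ± 3.86 CPM (2.90 ± 0.10).

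Foxp1-positive nuclei had Pde1a and Dkk2 as leading genes in common with the Foxp2-positive ones, and the nuclei overlap. Pde1a had 69.0 ± 5.08 against 9.58 ± 2.10 CPM (2.87 ± 0.06), Dkk2 11.6 ± 3.48 against 1.73 ± 0.698 CPM (2.71 ± 0.10) and Npnt, the matrix protein nephronectin, 16.3 ± 2.97 against 4.73 ± 0.581 CPM (1.79 ± 0.08). The falls were shallow. Pde11a, a phosphodiesterase of both cyclic nucleotides, had 8.70 ± 2.84 against 15.1 ± 2.38 CPM (-0.82 ± 0.09), with library ranges that overlapped, and Bnc2 had 98.2 ± 12.4 against 160 ± 8.24 CPM (-0.70 ± 0.03). Of the other RGC factors 1 of 51 rose and 1 fell.

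Satb1-positive nuclei had Zic1 as the gene with the largest named rise, at 12.5 ± 2.93 against 3.90 ± 0.475 CPM (1.67 ± 0.10, edgeR adjusted p = 1.09e-14). Cfap206, a protein of cilia and flagella, had 17.6 ± 4.36 against 6.38 ± 0.697 CPM (1.48 ± 0.10), and Col25a1, a membrane collagen, 134 ± 24.6 against 48.4 ± 6.24 CPM (1.47 ± 0.06). Lower in Satb1-positive nuclei were the glypican Gpc5, with 35.6 ± 7.64 against 131 ± 18.9 CPM (-1.89 ± 0.07), and Slc44a5, of the choline transporter-like family, with 8.09 ± 3.86 against 26.9 ± 2.23 CPM (-1.70 ± 0.11). Of 49 other RGC factors tested, 5 rose and 5 fell. Tfap2d, of the AP-2 family, and Runx1, of the runt family, were among those that rose. Tfap2d had 113 ± 16.9 against 48.0 ± 4.07 CPM (1.23 ± 0.04) and Runx1 21.9 ± 6.63 against 9.0 ± 1.66 CPM (1.27 ± 0.10). Among those that fell, Onecut3, a homeodomain factor, had 0.693 ± 0.474 against 1.69 ± 0.405 CPM (-1.32 ± 0.32) and Tbx20 12.0 ± 3.22 against 22.7 ± 4.64 CPM (-0.89 ± 0.12), both with library ranges that overlapped.

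Tbr1-positive nuclei were marked by Ppfibp2, a liprin of the synaptic scaffold, with 35 ± 14.6 against 5.11 ± 0.747 CPM (2.63 ± 0.29, edgeR adjusted p = 7.88e-17). Slitrk6, a synaptic adhesion protein, had 42.3 ± 13.0 against 10.9 ± 2.58 CPM (1.89 ± 0.24) and the neuregulin receptor Erbb4 176 ± 89.3 against 51.8 ± 7.75 CPM (1.75 ± 0.11). Of the 2 named genes that fell, the muscarinic receptor gene Chrm2 had 4.54 ± 8.64 CPM, with libraries from 0 to 24.5 CPM, against 51.3 ± 4.22 CPM (-3.80 ± 0.34) and Eya1, a transcriptional cofactor, had 2 UMIs in the positive nuclei, which made it 15.7-fold lower (95% Poisson interval 4.36 to 130, counting error only). Of the other RGC factors 3 rose and 8 fell of 48, and Bcl11a, a zinc-finger repressor, fell from 47.7 ± 3.77 to 17.3 ± 10.7 CPM (-1.55 ± 0.23). Of 10 paralogs of the members that were tested, the Iroquois factor Irx2 was the 1 that fell, from 19.3 ± 1.91 to 7.39 ± 5.50 CPM (-1.37 ± 0.37).

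Neurod2-positive nuclei were marked by Dnah6, an axonemal dynein, with 38.0 ± 9.52 against 4.98 ± 0.750 CPM (2.83 ± 0.32, edgeR adjusted p = 2.71e-13). The zinc-finger factor Prdm8 had 49.6 ± 18.5 against 9.27 ± 0.794 CPM (2.34 ± 0.27) and Adamtsl3, a matrix protein, 70.9 ± 28.9 against 13.2 ± 1.39 CPM (2.34 ± 0.22). Among the genes that fell were Lncbate1, a long noncoding RNA, with 4.80 ± 4.46 against 39.3 ± 8.97 CPM (-3.14 ± 0.38), and Ccdc192, whose 3 UMIs in the positive nuclei made it 22.8-fold lower (95% Poisson interval 7.82 to 111). The zinc-finger homeodomain factor Zfhx3 fell from 899 ± 39.4 to 214 ± 131 CPM (-2.26 ± 0.12). Of 47 other RGC factors tested, 5 rose and 11 fell. Another class's gate was also reached by 6.03% of Neurod2-positive nuclei (0 to 18.5% over the libraries), against 4.88% of Neurod2-negative ones.

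Zic1-positive nuclei were marked by Cfap206, with 131 ± 34.1 against 7.26 ± 0.630 CPM (4.09 ± 0.20, edgeR adjusted p = 1.56e-35). In the libraries it ranged from 59.8 to 168 CPM (median 131) in positive nuclei and from 6.41 to 8.32 CPM (median 7.22) in negative nuclei. Bmper, an extracellular regulator of bone morphogenetic proteins, had 128 ± 30.5 against 13.0 ± 1.66 CPM (3.22 ± 0.17) and Penk, the precursor of enkephalins, 64.5 ± 28.2 against 7.70 ± 1.99 CPM (2.99 ± 0.24). The glycine receptor subunit Glra1 had 2 UMIs in the positive nuclei and was 23.0-fold lower (95% Poisson interval 6.37 to 190), and the calcium channel subunit Cacna1e had 3 and was 18.5-fold lower (6.35 to 89.9). Of 47 other RGC factors tested, 5 rose and 11 fell. Tfap2d, high in Satb1-positive nuclei, was low here at 4.33 ± 4.84 against 59.9 ± 6.01 CPM (-3.74 ± 0.32), and Col25a1 fell too, to 9.45 ± 9.06 from 63.7 ± 6.74 CPM (-2.58 ± 0.27). Both genes were higher in Satb1-positive nuclei as a whole, although Satb1 and Zic1 were detected together more often than expected. Irx2 rose to 50.7 ± 16.4 from 18.9 ± 1.85 CPM (1.38 ± 0.21). Zic4 also rose, but it overlaps Zic1 and the contribution of shared reads was not tested.

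Bnc2-positive nuclei had Olfm4, a secreted olfactomedin, at 16.1 ± 4.17 against 1.46 ± 0.547 CPM (3.46 ± 0.13, edgeR adjusted p = 1.16e-24), Pde11a at 45.2 ± 5.15 against 7.23 ± 3.07 CPM (2.71 ± 0.12) and the matrix metalloproteinase Mmp9 at 34.7 ± 8.03 against 6.01 ± 1.34 CPM (2.54 ± 0.08). Ccdc192 fell to 2.18 ± 1.49 from 52.7 ± 6.64 CPM (-4.56 ± 0.12) and Glra1 to 1.86 ± 0.878 from 31.4 ± 1.72 CPM (-4.01 ± 0.12). Of 49 other RGC factors tested, 4 were higher and 17 lower, and of all genes in this fit 3.59% were higher and 6.58% lower. Meis2, a homeodomain factor, fell to 34.7 ± 14 from 262 ± 19.7 CPM (-2.96 ± 0.08) and Sox6 to 35.5 ± 10.1 from 241 ± 14.5 CPM (-2.78 ± 0.06).

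In Irx3-positive nuclei the long noncoding RNA Crnde had 32.7 ± 9.63 against 11.6 ± 0.517 CPM (1.4 ± 0.25, edgeR adjusted p = 1.59e-05) and Irx5, the Iroquois paralog next to it on chromosome 8, 30.2 ± 12.1 against 14.4 ± 1.56 CPM (0.96 ± 0.25, edgeR adjusted p = 0.00873). Crnde (chr8:93038763-93084336, minus strand) and Irx5 (chr8:93084253-93102914, plus strand) lie on opposite strands of the Iroquois gene cluster that also holds Irx3. The cadherin Cdh18 rose by 0.81 ± 0.07 and the netrin receptor Unc5d by 0.75 ± 0.08, the latter with overlapping ranges. Pde1a, the marker of the Foxp2-positive nuclei, had 3.08 ± 4.98 against 30.3 ± 2.48 CPM (-2.97 ± 0.38) and Sox5 22 ± 12.9 against 113 ± 7.73 CPM (-2.35 ± 0.17). Of 48 other RGC factors tested, 1 rose and 4 fell.

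**Figure D4:**
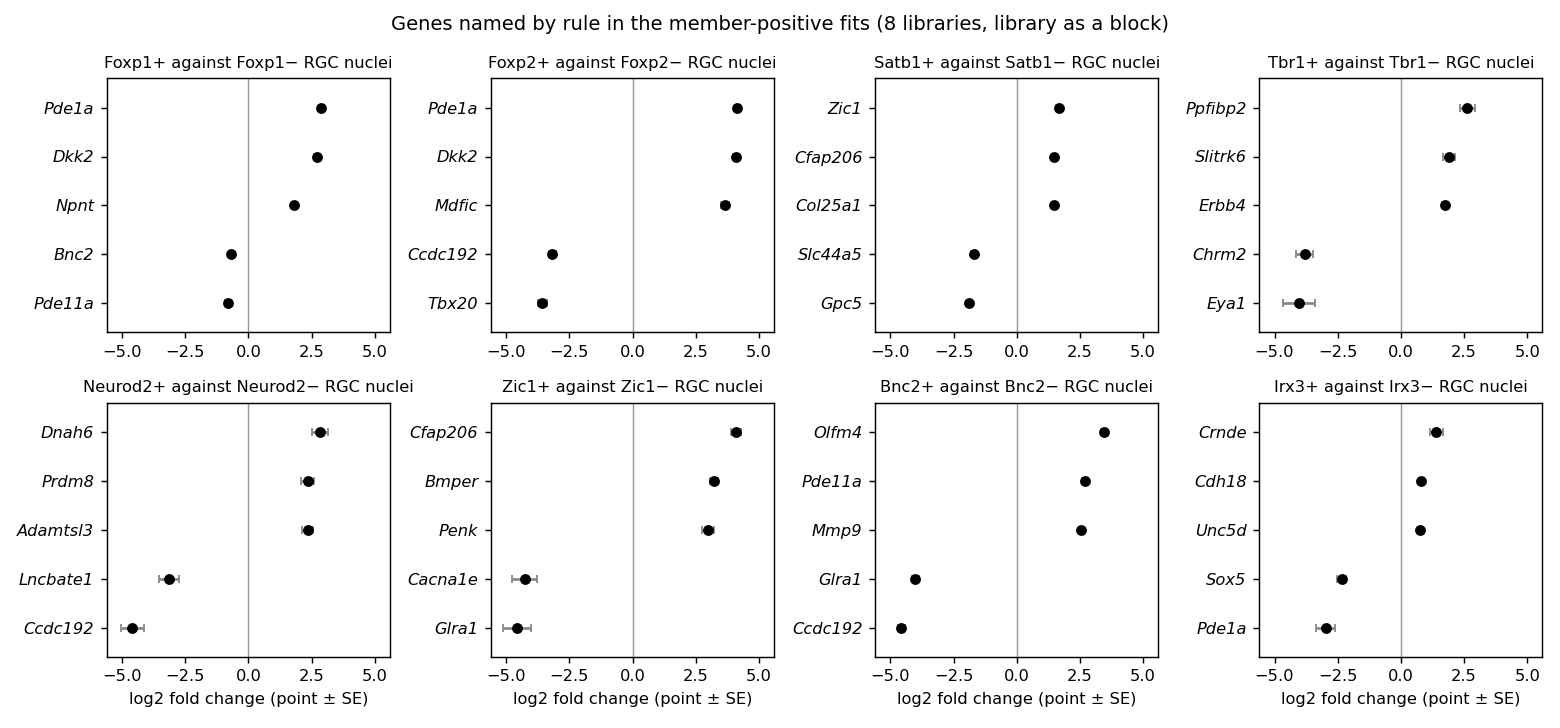
log2 difference between member-positive and member-negative RGC nuclei (sums over 8 libraries, edgeR, bars 1 SE) for the 5 named genes of each of the 8 members. The largest rises are those of Pde1a and Dkk2 in Foxp2-positive nuclei (4.13 and 4.10) and of Cfap206 in Zic1-positive nuclei (4.09), and the Irx3 panel has the smallest rises.

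Known RGC subtype markers and the paralogs of the members were counted in the same fits. Of the subtype markers, 8 rose and 19 fell of 40 tested in Foxp2-positive nuclei, 10 rose and 20 fell of 39 in Bnc2-positive, 4 rose and 16 fell of 37 in Zic1-positive and 2 rose and 11 fell of 38 in Tbr1-positive nuclei. In Satb1-positive nuclei 6 rose and 9 fell of 40, in Neurod2-positive nuclei 1 rose and 8 fell of 37, in Irx3-positive nuclei 2 rose and 7 fell of 37, and in Foxp1-positive nuclei 5 rose and 1 fell of 40. Falls outnumbered rises for every member but Foxp1, as they did among all genes tested in the same fits. The negative sums were the deeper side in every fit, most of all for the rare members. A low gene could pass the low-count filter through them alone, so calls lower may have been easier to reach, which was not tested. Of all genes, 4.63% rose and 6.54% fell in Foxp2-positive nuclei, 3.59% and 6.58% in Bnc2-positive, 2.13% and 4.91% in Zic1-positive and 0.72% and 2.2% in Tbr1-positive nuclei, 0.659% and 1.89% in Satb1-positive, 0.979% and 2.45% in Neurod2-positive, 0.601% and 0.947% in Irx3-positive and 0.618% and 0.238% in Foxp1-positive nuclei. The median log2 difference over the markers was -0.40 in Foxp2-positive, -0.51 in Bnc2-positive, -1.54 in Zic1-positive, -1.09 in Tbr1-positive, -1.02 in Neurod2-positive, -0.12 in Satb1-positive, -0.076 in Irx3-positive and 0.10 in Foxp1-positive nuclei. Over all genes tested it was 0.011, 0.0051, -0.100, -0.089, -0.097, 0.0055, -0.056 and 0.00013 in the same order. Among the paralogs, 6 of 10 fell and 1 rose in Foxp2-positive and 5 of 10 fell and 1 rose in Bnc2-positive nuclei. Eomes, the T-box factor of melanopsin RGCs, had 1.28 ± 0.806 against 8.20 ± 0.541 CPM with Foxp2 (-2.76 ± 0.21) and 1.06 ± 0.563 against 8.31 ± 0.544 CPM with Bnc2 (-2.97 ± 0.19).

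The members themselves were tested against each other in these fits, giving 56 differences of which 28 were called, 8 higher and 20 lower, where 0.856% to 11.2% of all genes were called in the 8 fits. Of the 28, 23 were called under every alternative that gave a value. As with the markers, low members could pass the low-count filter through the deeper negative sums. The excess of falls is therefore not read as a result. Zic1 was called lower in Tbr1-positive nuclei (-3.36) from 1 UMI, and was called in 5 of 7 alternatives. Foxp1 had 471 ± 21.0 CPM in Foxp2-positive and 211 ± 9.98 CPM in Foxp2-negative nuclei (1.17), while Bnc2 did not differ there beyond its error (136 ± 12.4 against 139 ± 9.84 CPM). In Bnc2-positive nuclei, Foxp2 had 208 ± 31.2 against 153 ± 10.5 CPM and was higher in 7 of 8 libraries (0.46 ± 0.04, edgeR adjusted p = 2.47e-11), under the size threshold in this fit and above it in 3 of 8 alternatives. Zic1 was higher in Bnc2-positive nuclei, with 15.2 ± 2.40 against 3.68 ± 0.654 CPM (2.05). Satb1 in Zic1-positive nuclei reached 276 ± 74.0 against 111 ± 5.86 CPM (1.25), and Bnc2 in the same nuclei 318 ± 60.8 against 137 ± 8.88 CPM (1.14). On the falling side Tbr1, Neurod2 and Irx3 were lower in Foxp2-positive nuclei (-1.89, -1.61 and -1.68) and in Bnc2-positive nuclei (-2.01, -2.41 and -0.86). Foxp2 in Foxp1-positive nuclei was higher by 0.82, which became -0.014 when nuclei were called Foxp1-positive from all their UMIs. These pairwise levels and the joint detection above come from the same nuclei and are not independent of each other.

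Piezo2, the channel gene that the study targeted, was low in RGC nuclei and unequal between the populations. Bnc2-positive nuclei had 17.6 ± 3.44 CPM against 12.2 ± 2.5 CPM in Bnc2-negative nuclei (0.53 ± 0.08, edgeR adjusted p = 6.40e-07), which is just above the size threshold and dropped to 0.43 when positivity was taken from all UMIs. Foxp2-positive nuclei had 5.11 ± 2.07 against 14.3 ± 2.92 CPM (-1.47 ± 0.13, edgeR adjusted p = 7.30e-11). All 8 libraries of both genotypes enter these values, and the Foxp2-positive nuclei had the larger difference. Irx3-positive nuclei held 9 Piezo2 UMIs in all (-1.56 ± 0.45, edgeR adjusted p = 0.0315), a call lost in 4 of 8 alternatives, namely without the library block (adjusted p = 0.144), with DESeq2 (adjusted p = 0.223), without the deepest 10% of nuclei (adjusted p = 0.0983) and on thinned sums (adjusted p = 0.460), with log2 differences of -1.57, -1.58, -1.51 and -1.81. Neurod2-positive nuclei held 7 (adjusted p = 0.0583), Tbr1-positive nuclei 12 (adjusted p = 0.217) and Zic1-positive nuclei 15 (adjusted p = 0.445), none of which passed the edgeR test, although with positivity from all UMIs Piezo2 was called lower in Tbr1-positive (-1.63, adjusted p = 1.54e-06) and Neurod2-positive nuclei (-1.57, adjusted p = 6.53e-05). Foxp1-positive nuclei had 11.6 ± 2.22 against 13.7 ± 2.93 CPM (-0.24, below the size threshold) and Satb1-positive nuclei 12.6 ± 4.66 against 13.1 ± 2.40 CPM.

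The other retinal classes were set among barcodes outside the RGC gate by marker UMIs, and are called by the class they resemble. They comprised 1771 other amacrine-like, 592 glycinergic amacrine-like, 109 starburst amacrine-like, 1971 bipolar-like, 2087 rod-like, 682 cone-like, 1627 Müller glia-like and 692 horizontal-like nuclei. Check markers that did not set the classes were highest in the class they name for RGC, Müller glia-like, bipolar-like, cone-like, rod-like, horizontal-like and glycinergic amacrine-like nuclei. The starburst check markers (108 CPM in starburst amacrine-like and 413 CPM in Müller glia-like nuclei) and the amacrine check markers (774 CPM in other amacrine-like and 968 CPM in Müller glia-like nuclei) were not, so these names rest on their gate genes. Astrocyte-like (10), endothelial and mural-like (21), microglia-like (10) and oligodendrocyte lineage-like (5) nuclei were too few to compare, and 6144 barcodes stayed without a class. Some RGC transcripts were in every class. The Brn3 genes stood at 2.8 to 5.6% of their RGC level in horizontal-like nuclei, 5.2 to 9.9% in other amacrine-like, 14.1 to 20.9% in cone-like, 13.2 to 23.8% in Müller glia-like and 24.0 to 43.7% in rod-like nuclei. The part of stray RGC RNA or misplaced nuclei in the member levels of these classes was not tested.

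Foxp1 was the member shared by all classes. It had 342 ± 22.8 CPM in other amacrine-like nuclei, above its RGC level of 248 ± 9.88 CPM in 8 of 8 libraries (log2 difference 0.41 ± 0.04, edgeR adjusted p = 1.46e-10, under the size threshold of 0.5). Rod-like nuclei had 248 ± 37.5 CPM, Müller glia-like 202 ± 26.4 CPM, bipolar-like 199 ± 20.9 CPM, cone-like 177 ± 33.6 CPM, glycinergic amacrine-like 170 ± 30.6 CPM and starburst amacrine-like 133 ± 46.3 CPM. Horizontal-like nuclei were lowest at 83.1 ± 24.5 CPM (-1.46 ± 0.09). No neighbours in this order passed an exact paired permutation test after adjustment. Even other amacrine-like over RGC nuclei, higher in 8 of 8 libraries, had only the smallest p that test allows (0.00781, adjusted p = 0.0556). The failure to pass therefore says little about this order.

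Foxp2 was high in RGC nuclei and in Müller glia-like nuclei and low in all others. Müller glia-like nuclei had 243 ± 58.8 CPM, with libraries from 176 to 332 CPM, and lay above the RGC nuclei of the same library in 8 of 8 (0.44 ± 0.08, edgeR adjusted p = 1.77e-05, under the size threshold). At 1000 UMIs per nucleus 16.5% of Müller glia-like and 11.6% of RGC nuclei had a Foxp2 UMI, against 0 of 692 horizontal-like nuclei, which at full depth held 7 Foxp2 UMIs (1.54 ± 1.61 CPM). The part of stray RNA or misplaced nuclei in the Foxp2 level of the Müller glia-like class was not tested. Rod-like nuclei had 19.0 ± 10.1 CPM of Foxp2, and the remaining classes 7.21 CPM or less. Starburst amacrine-like nuclei had no Foxp2 UMI among 694986, which puts the RGC level at least 37.2-fold higher (floor of 3 counts over the class, counting error only).

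Satb1 was highest in RGC nuclei. Its levels were 55.8 ± 11.5 CPM in glycinergic amacrine-like (-1.16 ± 0.12, edgeR adjusted p = 9.59e-11), 32.8 ± 7.28 CPM in rod-like, 28.8 ± 16.8 CPM in cone-like, 23.5 ± 14 CPM in starburst amacrine-like and 21.5 ± 3.20 CPM in bipolar-like nuclei, down to 1.5 ± 1.42 CPM in horizontal-like ones. Bnc2 was likewise highest in RGC nuclei. It had 22.9 ± 20.9 CPM in glycinergic amacrine-like nuclei (-2.83 ± 0.22), with libraries from 0 to 63.6 CPM, and 8.68 CPM or less in each of the other classes.

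Neurod2 was higher in glycinergic amacrine-like and bipolar-like nuclei than in RGC nuclei. Glycinergic amacrine-like nuclei had 33.4 ± 11.3 CPM (18.4 to 53.5 over the libraries) against 3.61 ± 0.469 CPM in RGC nuclei (3.04 ± 0.25, edgeR adjusted p = 5.13e-13), and bipolar-like nuclei 12.0 ± 5.12 CPM (1.59 ± 0.23, edgeR adjusted p = 3.25e-07). The lowest library of the glycinergic class lay above the highest RGC library. Neurod2 was lower than in RGC nuclei in other amacrine-like nuclei, at 1.26 ± 0.824 CPM (-1.63 ± 0.34, edgeR adjusted p = 0.000168), and in Müller glia-like nuclei, at 1.42 ± 1.70 CPM from 7 UMIs (-1.37 ± 0.51, edgeR adjusted p = 0.0202), and it did not pass the test in the remaining 4 classes. Zic1 had 10.7 ± 6.37 CPM in Müller glia-like nuclei (0.96 ± 0.27, edgeR adjusted p = 0.00265), from 53 UMIs and with 1 library at 0, and in each other class it was lower than in RGC nuclei or did not pass the test. Tbr1 had its highest mean CPM in RGC nuclei and was lower in 6 of the 8 other classes by the test, the exceptions being glycinergic and starburst amacrine-like nuclei, and the call in rod-like nuclei was lost with DESeq2 (adjusted p = 0.0686). Without the library block Tbr1 was called lower in glycinergic amacrine-like nuclei too (-1.36, edgeR adjusted p = 0.0386). The 6 calls rest on 0 (horizontal-like) to 17 (other amacrine-like) Tbr1 UMIs per class, against 870 in RGC nuclei. Tbr1 passed the low-count filter of these fits through the deeper RGC sums, so a call lower was easier to reach than a call higher. Horizontal-like nuclei had no UMI of Tbr1 or Zic1 among 4209877, so the RGC levels were at least 6.17-fold and 7.58-fold higher. Irx3 was 4.28 ± 4.00 CPM in rod-like and 4.81 ± 12.7 CPM in starburst amacrine-like nuclei, the latter from 5 UMIs in 1 library, and neither differed from RGC nuclei beyond its error. It was called lower than in RGC nuclei in other amacrine-like, glycinergic amacrine-like, bipolar-like, Müller glia-like and horizontal-like nuclei. Its mean there was 0.304 to 2.17 CPM, from only 1 to 15 UMIs per class. Cone-like nuclei held 1 Irx3 UMI (0.609 CPM).

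**Figure D5:**
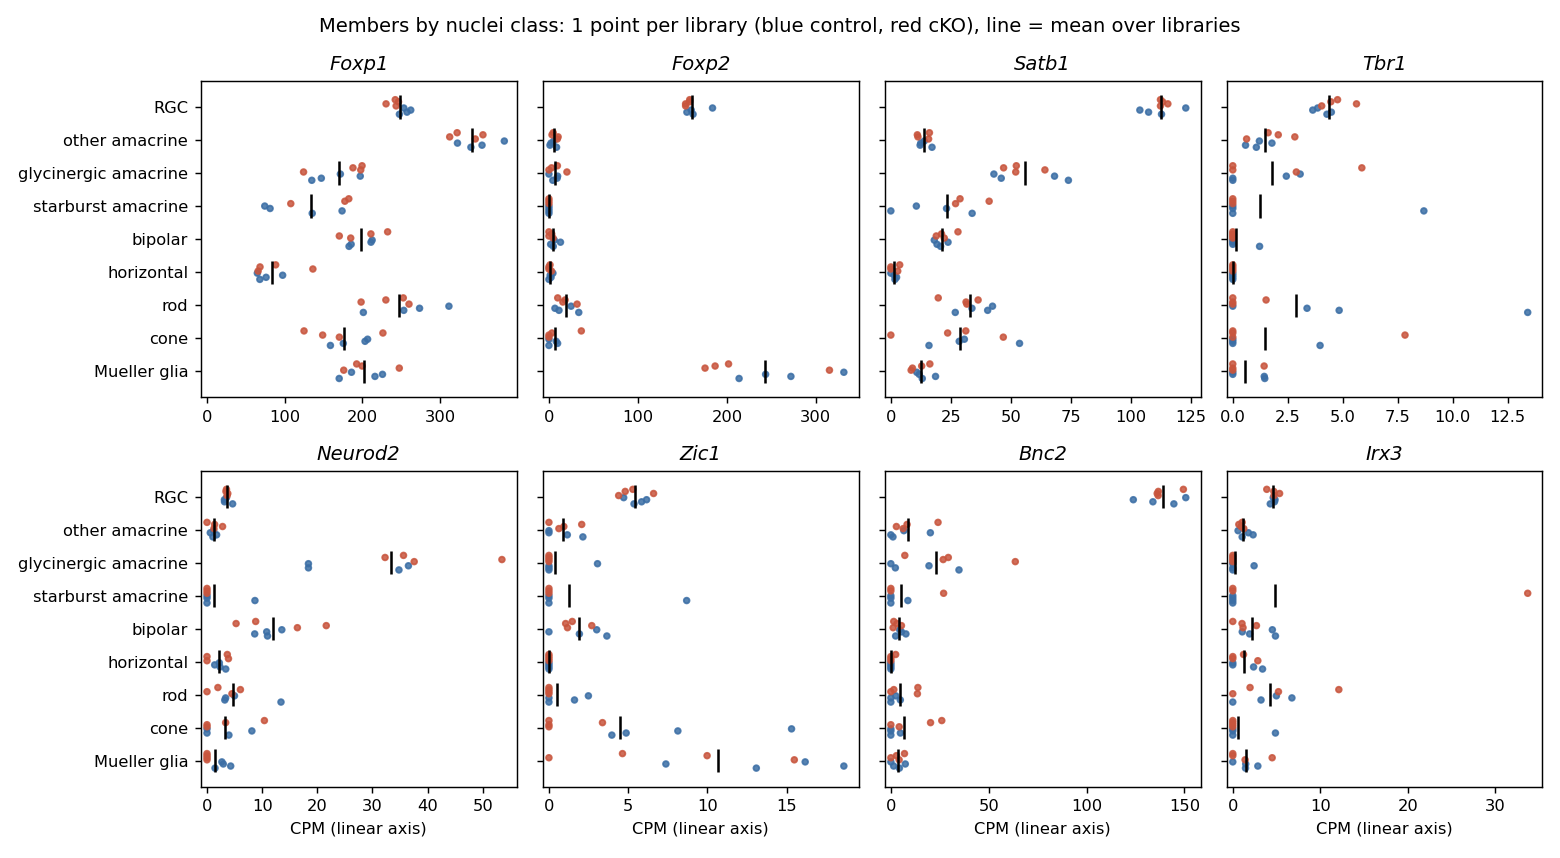
Level of each member in RGC nuclei and in the 8 other classes, in CPM (mean over libraries with points per library, linear scale). Foxp1 is above 80 CPM on average in every class, Foxp2 is high in RGC and Müller glia-like nuclei, Neurod2 is highest in glycinergic amacrine-like nuclei (33.4 CPM), and Bnc2, Satb1 and Tbr1 have their highest means in RGC nuclei.

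By class, the members called lower than in RGC nuclei outnumbered those called higher everywhere, though many genes of any kind differed between classes. Tbr1, Zic1 and Irx3 did not pass the low-count filter within any other class alone. Foxp2 passed it alone only in Müller glia-like, Bnc2 only in other amacrine-like and Neurod2 only in glycinergic amacrine-like nuclei. Satb1 passed it alone in other amacrine-like, glycinergic amacrine-like, bipolar-like and rod-like nuclei, and Foxp1 in every class. Elsewhere the members passed it here with the deeper RGC sums, so calls lower were easier to reach for them than calls higher. In horizontal-like nuclei 0 were higher and 7 lower (40.5% of all genes called, 14.4% higher and 26.1% lower), in other amacrine-like nuclei 0 and 7 (27.9%, 13.1% and 14.8%), in glycinergic amacrine-like nuclei 1 and 6 (27.2%, 10.4% and 16.8%) and in bipolar-like nuclei 1 and 6 (47.4%, 21.2% and 26.2%). In cone-like nuclei 0 were higher and 6 lower (50.1%, 19.8% and 30.2%), in Müller glia-like nuclei 1 and 5 (53.6%, 23.8% and 29.8%), in rod-like nuclei 0 and 5 (57.9%, 24.5% and 33.4%) and in starburst amacrine-like nuclei 0 and 4 (20.1%, 5.72% and 14.4%). The median log2 difference of all genes was -0.30 in starburst amacrine-like, -0.19 in cone-like, -0.14 in rod-like, -0.12 in horizontal-like and -0.11 in Müller glia-like nuclei, so small falls there are close to that of a typical gene. An exact paired permutation test of neighbouring classes in each member's order passed for 0 of 64 pairs after adjustment, the smallest p that 8 pairs allow being 0.00781 (adjusted p = 0.0556).

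The targeted gene was read first. Piezo2 in RGC nuclei had 17.0, 13.5, 13.7 and 11.3 CPM in the control libraries (replicates 1 to 4) and 14.8, 13.2, 12.0 and 8.34 CPM in the cKO libraries (replicates 10 to 13). The groups overlapped (13.9 ± 2.31 against 12.1 ± 2.73 CPM, log2 -0.26 ± 0.15, edgeR adjusted p = 0.979). Whole-gene UMIs taken near 3′ ends and internal priming sites can lie outside the deleted part, so this level does not check the genotype labels. Cre is driven from the Olig2 locus, and whether RGCs lost the floxed part was not tested.

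Between genotypes none of the 8 members was called in RGC nuclei by edgeR, where 0.0% of 18514 genes were called. At an unadjusted p under 0.05 there were 642 genes (3.47%), and DESeq2 called 2 genes, Hsd17b7 and Lars2, neither of them a member. Foxp1 was the member with the clearest separation. Its control libraries had 248, 257, 262 and 253 CPM and its cKO libraries 243, 230, 246 and 242 CPM, so that every cKO library lay below every control library. The difference was small (255 ± 6.2 against 241 ± 7.03 CPM, log2 -0.14 ± 0.06, unadjusted p = 0.0445, adjusted p = 0.979 by edgeR). An exact two-sided permutation test of the CPM gave an unadjusted p = 0.0286, the lowest among the 8 members. It is the smallest value that 4 against 4 libraries allow. Groups failed to overlap for 3.56% of all genes tested, with the cKO lower for 0.605%. Leaving out each library in turn gave log2 differences of -0.17 to -0.10 for Foxp1.

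Foxp2 had 162, 155, 160 and 184 CPM in control and 154, 154, 158 and 158 CPM in cKO libraries. The groups overlapped, with control replicate 4 highest (log2 -0.14 ± 0.07, edgeR adjusted p = 0.979, exact permutation p = 0.114). Satb1 had 113, 107, 104 and 123 CPM in control and 112, 115, 113 and 112 CPM in cKO libraries, and Bnc2 145, 134, 124 and 151 against 137, 136, 137 and 149 CPM. Here the cKO libraries lay inside the range of the controls (log2 -0.04 ± 0.07 and -0.04 ± 0.08). For both, the mean CPM was slightly higher in cKO while the fitted value was slightly lower, so no direction can be given. Control replicate 4, the library with the most barcodes of 10 to 100 UMIs, was the highest control for Foxp2, Satb1 and Bnc2, and without it the log2 differences were -0.082, 0.017 and 0.0083. The part of free RNA in these values was not tested. The low members had wider errors. Tbr1 had 4.28, 4.48, 3.64 and 3.86 CPM in control and 4.04, 5.63, 4.46 and 4.77 CPM in cKO libraries (0.15 ± 0.14), Zic1 5.37, 5.85, 6.16 and 4.72 against 4.4, 6.6, 4.81 and 5.30 CPM (-0.14 ± 0.15), Irx3 4.28, 4.76, 4.83 and 4.62 against 4.71, 5.35, 4.69 and 3.88 CPM (-0.06 ± 0.12, with a mean CPM slightly higher in cKO, so no direction can be given) and Neurod2 4.65, 3.17, 3.16 and 3.53 against 3.64, 3.77, 3.43 and 3.53 CPM (-0.06 ± 0.14). All of them overlapped between genotypes, and a difference of a size within these errors was not detectable at this depth.

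The shares of RGC nuclei positive for a member did not separate the genotypes either. Foxp1 was detected in 36.1 ± 1.17% of control and 34.6 ± 1.54% of cKO nuclei, Foxp2 in 16.6 ± 0.991% and 16.4 ± 0.356%, Satb1 in 17.3 ± 0.730% and 17.5 ± 0.611%, and Bnc2 in 14 ± 0.503% and 14.4 ± 0.271% (n = 4 libraries each). Over the 8 members the exact permutation tests gave adjusted p-values of 0.731 to 0.971, and over the shares of nuclei with 0, 1, 2 and 3 or more members 0.514 to 0.543. The joint detection of the leading pairs had the same side in both genotypes. Zic1 with Bnc2 had a ratio of 2.99 in control and 2.65 in cKO libraries, Zic1 with Satb1 of 2.29 and 2.62, and Foxp1 with Foxp2 of 1.4 and 1.36.

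Of the paralogs 0 of 12 tested, of the other RGC factors 0 of 51 and of the subtype markers 0 of 40 were called between genotypes, and at an unadjusted p under 0.05 these were 0, 5 and 5 genes, where 3.47% of all genes tested reached that p. No test of the lists against all genes was made. In the other classes none of the members that could be tested was called by edgeR, and 0 to 2 genes per class were called in all (0.0% of those tested in starburst amacrine-like, glycinergic amacrine-like, rod-like and Müller glia-like nuclei, 0.00846% in other amacrine-like, 0.0107% in bipolar-like, 0.0151% in horizontal-like and 0.0427% in cone-like nuclei). Foxp1 could be tested in all 8 classes, Satb1 in other amacrine-like, glycinergic amacrine-like, bipolar-like and rod-like nuclei, Bnc2 in other amacrine-like nuclei, Foxp2 in Müller glia-like nuclei (-0.27 ± 0.18) and Neurod2 in glycinergic amacrine-like nuclei (0.48 ± 0.33). The remaining combinations had too few UMIs to pass the filter on low counts.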

How the data were processed

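Nuclei of the retina were profiled with 10x 3′ v3.1 chemistry in 8 libraries. Per the labels, the authors counted UMIs with Cell Ranger 7.0.0 on GRCm39, and the deposited matrices hold these counts unnormalized, with empty barcodes kept. Their later steps (removal of ambient RNA, quality filters, doublet detection, clustering) are not in these counts and were not repeated. No doublet caller was run. Instead, nuclei that also reached another class's gate or had over 5% mitochondrial UMIs, and the deepest 10% of nuclei, were left out as alternatives within RGC nuclei. This was not done for the comparisons with other classes. Free RNA was not removed.

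The members and gene lists were chosen with earlier results of these data known. Classes other than RGC nuclei were set at 1000 or more UMIs by marker panels. Their thresholds were set after seeing the data, and Flt1 was dropped from the endothelial panel because Müller glia-like nuclei held it. Positivity for a member and shares were read after thinning each nucleus to 2000 UMIs (1000 UMIs for shares across classes).

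Summed counts were tested with edgeR 4.0.16 (R 4.3.3, quasi-likelihood test, TMM scaling, low-count filter), with the library as a block within libraries and without covariates between genotypes. Genes were called at an adjusted p under 0.05 and a log2 difference above 0.5. DESeq2 1.42.0 was an alternative. An RGC gate of at least 4 UMIs, no filter, other size factors, thinned sums and leaving out each library were further ones. Tests of single values were exact two-sided permutations over the 70 assignments of libraries. P-values between genotypes measure the spread between libraries, each a pool of 6 retinae. In fits with the library as a block they measure how the difference within a library varies between libraries. On simulated counts the genotype test recovered 96% of genes changed by 1 log2 unit, and the Irx3 test 58%, with 8 and 9 false calls. The simulation used a set dispersion, not one estimated from these libraries, and left out low-count genes. Changes under 1 log2 unit were not simulated, so these shares do not hold for the smaller differences between genotypes.

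Named genes were, for each member, the 3 largest rises and 2 largest falls among called genes that also passed on thinned sums, reached 10 CPM on the higher side, had the same direction in every library, a regular gene symbol and no overlap with the member. Of paralogs, other RGC factors and subtype markers at most 4 examples a list were eligible, by size, and Piezo2 was read in every fit. Some eligible examples are not reported here. Gene positions come from GENCODE M39.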

Additional observations from a re-analysis of the deposited data

Results flagged for a closer look

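Of 40 groups of 4 libraries examined for a library far from the others, 2 were flagged, both for Bnc2 and both for cKO replicate 13, and chance alone flags about 1 group in 20. The Bnc2 level in RGC nuclei was 149 CPM in that library, against 136 to 137 CPM in the other 3 cKO libraries, a gap of 0.957 of the group's range. The share of thinned RGC nuclei with a Bnc2 UMI was 14.8% there, against 14.2% to 14.3% in the others, a gap of 0.849 of the range. The 2 values come from the same nuclei, and control replicates 1 and 4 (145 and 151 CPM) reached a like level.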

How the results depend on the processing

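Several called counts of the member-positive fits moved. On sums of thinned nuclei, which hold fewer UMIs, they were 1084 for Foxp2, 194 for Satb1, 274 for Tbr1, 627 for Zic1, 895 for Bnc2 and 124 for Irx3. With positivity from all UMIs, an alternative chosen after seeing the data, they were 230 for Foxp1, 716 for Tbr1, 822 for Neurod2 and 437 for Irx3. With DESeq2 they were 285 for Tbr1 and 150 for Irx3, and without the library as replicate block 78 for Foxp1, the other counts without the block staying within 1.5 times. DESeq2 called 2 genes between genotypes in RGC nuclei. Without the low-count filter 4 to 55 genes per other class were called between genotypes, against 0 to 2.

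Some signs reversed. With positivity from all UMIs, Foxp1-positive nuclei had -0.014 for Foxp2 and 0.086 for Piezo2, Satb1-positive nuclei 0.17 for Piezo2 and Irx3-positive nuclei 0.12 for Neurod2. Neurod2 in Irx3-positive nuclei was also 0.058 at 4 gate UMIs and 0.044 without mixed-marker nuclei. Bnc2 in Foxp2-positive nuclei was 0.15 on thinned sums and 0.091 without the deepest 10%, where Tbr1 in Irx3-positive nuclei was 0.025. Satb1 in Neurod2-positive nuclei was -0.020 on thinned sums, and Irx3 in starburst amacrine-like nuclei -0.40 with DESeq2. Without thinning, Foxp1 with Satb1 had a ratio of 1.02. The cKO minus control share was then -2.37 percentage points for Satb1 (-2.11 at 2 or more UMIs), 0.947 for 1 member and -2.28 for 3 or more, and for Bnc2 -0.551 at 2 or more UMIs. At 4 gate UMIs it was 0.0170 for Foxp2 and 0.0109 for Neurod2, and without mixed-marker nuclei 0.0257 for Neurod2.

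Leaving out each library, the genotype log2 difference ran from -0.063 to 0.017 for Satb1, -0.12 to 0.054 for Neurod2, -0.097 to 0.0083 for Bnc2 and -0.11 to 2.42e-05 for Irx3. The share difference ran from -0.654 to 0.0640 points for Foxp2, -0.171 to 0.394 for Satb1, -0.0640 to 0.0261 for Neurod2 and -0.0119 to 0.247 for 3 or more members. No paired analysis was possible because the genotypes share no replicate numbers. Where no value given here or in the account above bears on it, the cause was not tested. The limits are the 180 to 246 positive nuclei of the rare members and the unremoved free RNA.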
